A study of Arabidopsis thaliana with 6 samples.

Results

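The genes that set ovule and seed coat identity were followed in whole Arabidopsis plants that express a grapevine MYB factor. They are STK (AT4G09960), SHP1 (AT3G58780), SHP2 (AT2G42830), TT16 (AT5G23260), TT1 (AT1G34790), INO (AT1G23420), BEL1 (AT5G41410) and ANT (AT4G37750), 8 loci of the 32627 on the array, and they were taken by locus identifier for their known roles, with earlier results of these data known. They are read by 12 of the 37118 features: 3 each for STK and TT16, and 1 for each of the other 6 genes. A locus with several features is given by the feature with the highest mean unless stated.

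The plants were of the Columbia ecotype, and all carried a transgene. In 3 lines, PAR18-2, PAR9-2 and PAR36-4, it was 35S::VvMYBPAR, in which the grapevine factor is driven in most tissues by 35S, a promoter from cauliflower mosaic virus. The other 3 lines, Cont1-1, Cont2-3 and Cont5-1, were transformed with an empty vector. Whole plants were taken at 3 weeks of age from agar plates that held kanamycin at 30 mg/l, in a cabinet set to 22 °C with a light period of 16 h. Each line gave 1 RNA sample from its own culture and 1 single-colour array, so that line, culture and array cannot be told apart within a group. All 37118 features carry Arabidopsis locus identifiers, and the introduced transcript itself was not analysed here. Replicates 1, 2 and 3 are the lines in the order just given.

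Values are log2 of the deposited RMA intensities, and differences are MYBPAR minus empty vector. Plotted over all features, the mean log2 values had a low and a high peak, called the low and the high mode, which are divided by a trough at 7.12. On each array 33.0% to 33.4% of features fell short of this trough. A signal in the low mode may be background, since no detection call comes with these values, and a difference measured there may be understated. No level of one feature is set against that of another. In whole-plant RNA, fewer cells of a type and less RNA per cell cannot be told apart.

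In ovules, the MADS factors STK, SHP1 and SHP2 act redundantly with AG, the carpel identity gene, to specify ovule identity. Integuments, the layers that become the seed coat, need ANT for their outgrowth, BEL1 for their identity and INO for the outer layer. The innermost seed coat layer, the endothelium, is where condensed tannins (proanthocyanidins) normally form, and TT16 and TT1 are required there for tannin to accumulate. BAN, the anthocyanidin reductase gene that opens the tannin branch, is normally expressed in that layer. The comparison therefore bears on whether the tannin genes that were high in the MYBPAR lines came together with genes of the tissue in which tannin is normally made.

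None of the 8 genes was called higher or lower in the MYBPAR lines than in the empty vector lines, and the endothelium genes TT16 and TT1 stood in the low signal range in both groups. By limma with Benjamini-Hochberg adjustment over all features, 0 of 8 passed an adjusted p of 0.05 in either direction, where 0.00539% of all features passed (2 of 37118). At an unadjusted p under 0.05 the count was also 0 of 8, against 4.32% of all features, and a linear model without moderation called 0 of 8 and 0 of all features. The groups overlapped in all 8 genes, and they did not overlap in 9.99% of all features. At these shares, counts of 0 of 8 are no result about the regulators. The log2 differences ran from -0.26 to 0.64, with 5 of 8 above 0 and a median of 0.20, against 53.7% above 0 and a median of 0.02 over all features. With 3 lines a group the intervals stayed wide for some genes, so these results do not show equal levels.

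**Figure D1:**
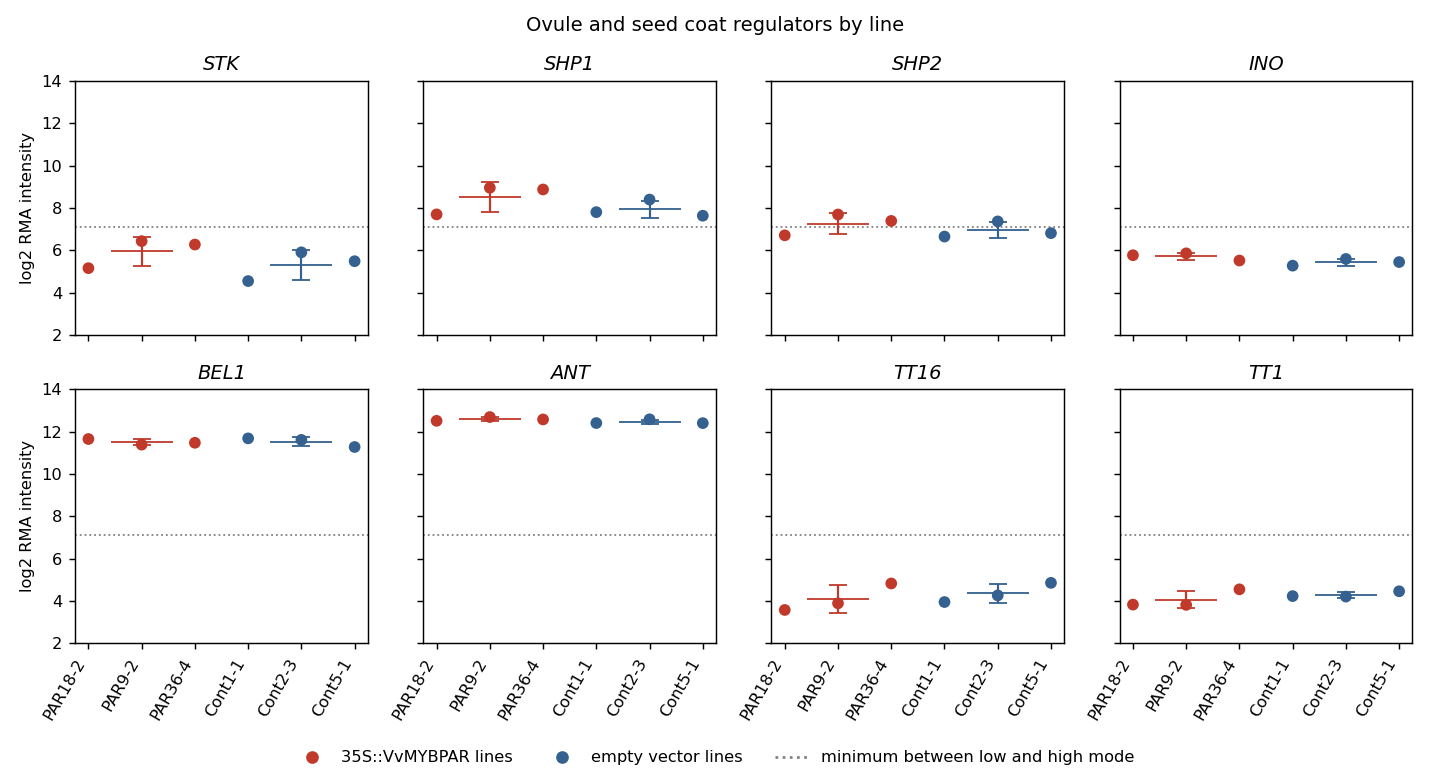
Log2 RMA intensity of each of the 8 regulators in each line (points), with the group mean and SD (bars, n = 3 each) and the trough of 7.12 that divides the low from the high mode (dotted). STK, INO, TT16 and TT1 lie below the dotted line in all 6 lines, and the groups overlap in every panel.

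The ovule identity gene STK stood at 5.16, 6.43 and 6.27 in PAR18-2, PAR9-2 and PAR36-4, against 4.55, 5.90 and 5.49 in Cont1-1, Cont2-3 and Cont5-1. All 6 values lay in the low mode, and PAR18-2 lay below 2 of the 3 empty vector lines. For STK the log2 difference came to 0.64 (SE 0.46, 95% interval -0.47 to 1.76; limma, adjusted p = 0.915).

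SHP1, which acts in ovules and in the valve margins along which the fruit opens, had log2 values of 7.70, 8.96 and 8.88 in the MYBPAR lines, against 7.80, 8.40 and 7.63 in the empty vector lines. All 6 were in the high mode, and PAR18-2 again lay among the empty vector values. The groups differed by 0.56 on the log2 scale (SE 0.38, 95% interval -0.36 to 1.49; limma, adjusted p = 0.915). SHP2, its close paralogue with the same roles, stood at 6.71, 7.69 and 7.39 in the MYBPAR lines, against 6.65, 7.37 and 6.81 in the empty vector lines. Its values straddled the trough between the modes, with 3 of the 6 below it. For SHP2 the log2 difference came to 0.32 (SE 0.30, 95% interval -0.41 to 1.05; limma, adjusted p = 0.917). Whether the features of these related genes cross-hybridise was not tested.

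STK, SHP1 and SHP2 had the same line order at the top and bottom of the MYBPAR group, with PAR9-2 highest and PAR18-2 lowest. Cont2-3 was the highest empty vector line for all 3 genes. The lowest was Cont1-1 for STK and SHP2 and Cont5-1 for SHP1.

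The integument genes showed smaller differences and smaller spreads. INO, a YABBY factor of the outer integument, had log2 values of 5.77, 5.86 and 5.52 in the MYBPAR lines, against 5.27, 5.59 and 5.45 in the empty vector lines. All were in the low mode, and only PAR36-4 fell within the empty vector range. For INO the log2 difference came to 0.28 (SE 0.14, 95% interval -0.06 to 0.62; limma, adjusted p = 0.915).

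BEL1 and ANT were in the high mode in every line. BEL1, a homeodomain factor, stood at 11.65, 11.39 and 11.47 in the MYBPAR lines, against 11.68, 11.61 and 11.27 in the empty vector lines, and the difference was -0.02 on the log2 scale (SE 0.15, 95% interval -0.38 to 0.34; limma, adjusted p = 0.988). ANT, an AP2-type factor that also promotes growth in young leaves and other lateral organs, stood at 12.51, 12.69 and 12.58 in the MYBPAR lines, against 12.41, 12.58 and 12.40 in the empty vector lines. The difference for ANT was 0.13 on the log2 scale (SE 0.11, 95% interval -0.14 to 0.39; limma, adjusted p = 0.915). The whole range over 6 lines was 0.41 for BEL1 and 0.29 for ANT, against 1.89 for STK and 1.32 for SHP1. STK was in the low mode in every line, where a signal may be background. In whole-plant RNA the signal of BEL1 and ANT cannot be assigned to integuments.

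The endothelium regulators lay in the low mode in every line and had differences below 0 by the feature with the highest mean. TT16, a B-sister MADS factor, stood at 3.57, 3.89 and 4.83 in PAR18-2, PAR9-2 and PAR36-4, against 3.95, 4.26 and 4.85 in the empty vector lines. PAR18-2 and PAR9-2 lay below all 3 empty vector lines and PAR36-4 within their range. For TT16 the log2 difference came to -0.26 (SE 0.38, 95% interval -1.17 to 0.66; limma, adjusted p = 0.925).

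TT1, a WIP-type zinc finger factor, stood at 3.83, 3.81 and 4.55 in the MYBPAR lines, against 4.23, 4.21 and 4.46 in the empty vector lines. PAR18-2 and PAR9-2 were the lowest of the 6 and PAR36-4 the highest. For TT1 the log2 difference came to -0.23 (SE 0.22, 95% interval -0.77 to 0.31; limma, adjusted p = 0.917).

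The separate features of STK and TT16 did not all follow one order of lines. The first STK feature ran with the second, at 4.90, 6.40 and 6.26 in the MYBPAR lines against 4.76, 5.83 and 5.48 in the empty vector lines. The third STK feature ranged from 2.64 to 3.78 and was highest where the other 2 were lowest in each group, at 3.78 in PAR18-2 and at 3.15 in Cont1-1. Its log2 difference was 0.51 (SE 0.24; limma, adjusted p = 0.915).

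For TT16 the sign itself depended on the feature, at 0.30 (SE 0.30), -0.19 (SE 0.30) and -0.26 (SE 0.38) for the 3 features in order. All 8 features of STK, TT16, TT1 and INO were in the low mode in all 6 lines. The groups overlapped in all 12 features of the 8 genes.

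**Figure D2:**
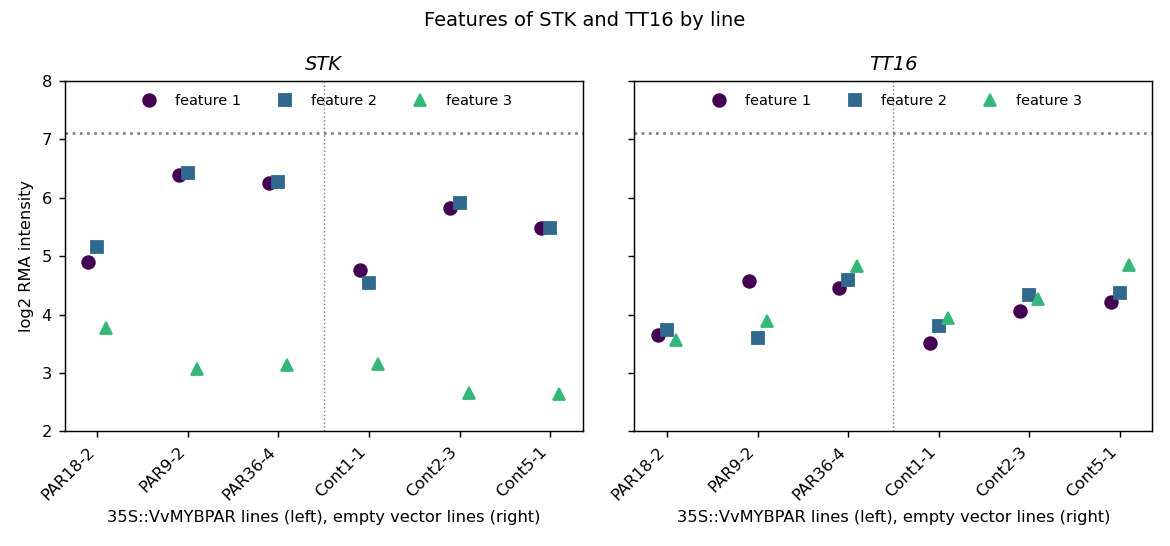
Log2 RMA intensity of the 3 features of STK (left panel) and of TT16 (right panel) in each line, with the trough between the modes (dotted horizontal line). The first and second STK features share an order of lines, with PAR9-2 highest, while the third is highest in PAR18-2 at 3.78, and every point lies in the low mode.

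The tannin list, set beside the regulators in the same fit, held 14 genes, of which some are not specific to the tannin branch. It was chosen with earlier results of these data known, in which BAN, AHA10, TT8, TT10 and GSTF5 were highest. Its counts and median are therefore a description only. In it 12 of 14 log2 differences were above 0 with a median of 0.49, and 1 passed across all features in the higher direction and 0 in the lower. The gene that passed was BAN. It stood at 11.69, 10.63 and 10.43 in PAR18-2, PAR9-2 and PAR36-4, against 4.69, 4.76 and 4.67 in the empty vector lines, all of which were in the low mode. The difference for BAN was 6.21 on the log2 scale (SE 0.33, lower 95% bound 5.42; limma, adjusted p = 0.0283). The lower bound for BAN lay above the highest upper bound among the 8 regulators, which was 1.76 for STK. BAN was known to be among the highest from earlier results of these data, so this comparison is a description only. STK was in the low mode in every line, where a difference may be understated, so its bound may be too low.

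The call of BAN depended on which lines were in the fit. Its adjusted p was 0.385 without PAR9-2, 0.0562 without PAR36-4, 0.220 without Cont1-1, 0.316 without Cont2-3 and 0.545 without Cont5-1 (limma), while the log2 difference stayed between 5.82 and 6.45 when any 1 line was left out.

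Other genes of the tannin list had groups that did not overlap but missed the threshold across all features. AHA10, a proton pump gene needed for tannin in the seed coat, had log2 values of 10.03, 9.96 and 9.91 in the MYBPAR lines against 8.47, 8.65 and 8.54 in the empty vector lines (log2 difference 1.42, SE 0.10; limma, adjusted p = 0.0794). GSTF5, a phi-class glutathione transferase gene, had log2 values of 10.24, 9.20 and 9.19 in the MYBPAR lines against 6.12, 5.93 and 5.93 in the empty vector lines, and its difference was 3.55 (SE 0.30; limma, adjusted p = 0.134). TT8, a bHLH gene whose product works with MYB factors on tannin genes, had 2.00 (SE 0.32; limma, adjusted p = 0.915), and TT10, a laccase-like oxidase gene of the seed coat, had 0.78 (SE 0.22; limma, adjusted p = 0.915). GSTF5 passed with a trended, robust eBayes (adjusted p = 0.0343) and without PAR18-2 (adjusted p = 0.0108), and AHA10 passed without the dimmest 25% of features (adjusted p = 0.0361) and with log2(value + 32) (adjusted p = 0.0415), all limma. In all, 6 of the 14 tannin genes had MYBPAR values entirely above the empty vector values, and 0 of the 8 regulators did, where 6.32% of all features do. At that share, 0 of 8 is no result about the regulators. The 6 of 14 is a description only, since the tannin list was chosen with earlier results of these data known.

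**Figure D3:**
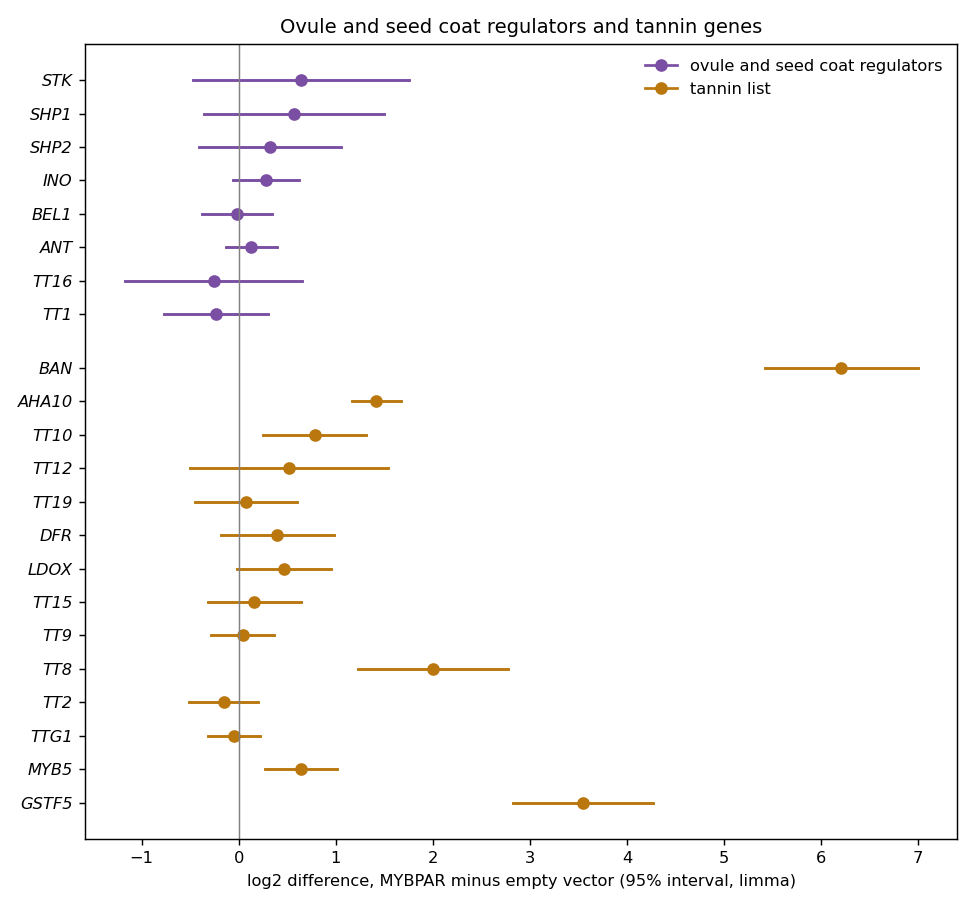
Log2 difference (MYBPAR minus empty vector, points) with its 95% interval from limma (lines) for the 8 regulators and the 14 genes of the tannin list. All 8 regulator intervals span 0, and BAN stands alone at 6.21.

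Besides TT16 and TT1, the endothelium markers TT2 and TT12 were in the low mode in all 6 lines. TT2, the endogenous MYB activator of BAN in seeds, had log2 values of 4.98, 5.23 and 5.45 in the MYBPAR lines against 5.35, 5.47 and 5.31 in the empty vector lines, which differ by -0.16 on the log2 scale (SE 0.15; limma, adjusted p = 0.917). TT12, a tannin precursor transporter gene of the vacuole, had 5.76, 5.87 and 6.60 in the MYBPAR lines against 4.67, 6.05 and 5.96 in the empty vector lines, which differ by 0.52 on the log2 scale (SE 0.42; limma, adjusted p = 0.915). Of the 6 endothelium markers TT16, TT1, TT2, BAN, TT12 and AHA10, only AHA10 was in the high mode in every line, and only BAN and AHA10 separated the groups. In the whole tannin list TT2 and TT12 were the only 2 of 14 genes in the low mode in all lines, and TT8, TT10, MYB5 and GSTF5 separated the groups as well.

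Floral organ transcripts varied between the lines, and STK, SHP1 and SHP2 were high in the lines where these were high. The mean of 7 floral organ identity genes, set against the average of the 3 empty vector lines on the log2 scale, was 0.18, 0.93 and 1.04 in PAR18-2, PAR9-2 and PAR36-4, against -0.75, 0.71 and 0.04 in Cont1-1, Cont2-3 and Cont5-1. On the same relative scale STK was -0.16, 1.12 and 0.96 in the MYBPAR lines, against -0.76, 0.59 and 0.17 in the empty vector lines. For both, the higher lines were PAR9-2, PAR36-4 and Cont2-3. With the floral mean as a covariate, the log2 difference was -0.13 (SE 0.21) for STK, 0.06 (SE 0.34) for SHP1 and -0.13 (SE 0.22) for SHP2 (limma, adjusted p = 0.990, 0.994 and 0.990). BAN had 6.49 (SE 0.37) in that fit and was not called (limma, adjusted p = 0.116).

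The order of lines differed between BAN and the ovule genes STK, SHP1 and SHP2. PAR18-2 had the highest BAN value of all lines, 11.69, and the lowest values of STK, SHP1 and SHP2 in its group. ANT was also lowest there, at 12.51. BEL1 was highest of its group in PAR18-2, at 11.65, and so was the third STK feature, at 3.78. INO in PAR18-2, at 5.77, lay between PAR9-2 and PAR36-4. Cont2-3 had higher STK, SHP1 and SHP2 than PAR18-2, at 5.90, 8.40 and 7.37 against 5.16, 7.70 and 6.71 in PAR18-2, and its BAN value was 4.76. With the mean of STK, SHP1, SHP2 and BEL1 as a covariate the log2 difference of BAN was 6.54 (SE 0.30; limma, adjusted p = 0.0474), that of GSTF5 was 3.90 (SE 0.22; adjusted p = 0.0578), that of TT8 2.19 (SE 0.36; adjusted p = 1.00) and that of AHA10 1.41 (SE 0.13; adjusted p = 0.684). That covariate was -0.13, 0.69 and 0.57 in the MYBPAR lines against -0.26, 0.39 and -0.13 in the empty vector lines. The covariate overlapped between the groups, and its slope rests on the spread among 3 lines a group. The adjusted differences of BAN, GSTF5, TT8 and AHA10 are therefore a description only. BEL1, which is part of the covariate, had another order of lines than STK, SHP1 and SHP2. TT16 and TT1 are left out of it. Whether seed coat tissue accounts for the tannin genes was not tested.

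**Figure D4:**
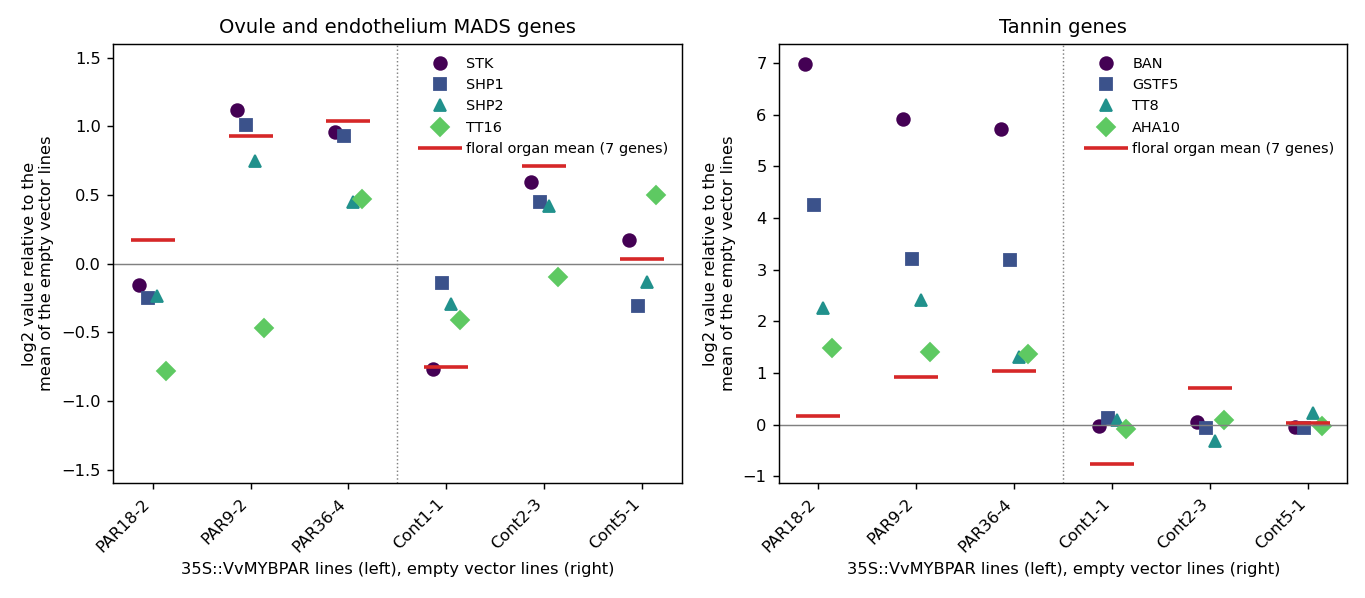
Log2 value set against the average of the 3 empty vector lines for STK, SHP1, SHP2 and TT16 (left panel) and for BAN, GSTF5, TT8 and AHA10 (right panel) in each line, with the mean of the 7 floral organ genes as a red bar in both. STK, SHP1 and SHP2 are below 0 in PAR18-2, where BAN is highest, and above 0 in Cont2-3, where BAN is at the empty vector level.

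Other genes of ovule development were without a call too. Of 17 such genes 15 had log2 differences above 0, the median was 0.21, and 0 passed in either direction. TTG2, a WRKY factor of trichomes and seed coat, had the smallest p, at 0.50 on the log2 scale (SE 0.13; limma, adjusted p = 0.915). The groups did not overlap in TTG2, nor in its other feature, which differed by 0.40. In this list 3 of 17 genes had MYBPAR values entirely above the empty vector values, where 6.32% of all features do. The list was chosen with earlier results of these data known, so this count is a description only. AG stood at 7.84, 8.84 and 8.99 in the MYBPAR lines against 6.79, 9.04 and 7.80 in the empty vector lines, so that the groups overlapped. The carpel list had 9 of 10 differences above 0, a median of 0.23 and 0 calls. HEC1, a bHLH gene of the carpel's transmitting tract, had the smallest p there, with -0.68 (SE 0.19; limma, adjusted p = 0.915).

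Most genes of the embryo and of the female gametophyte and endosperm stood in the low mode. In the embryo and storage list 9 of 10 genes were in the low mode in all 6 lines, with a median log2 difference of -0.02 and 0 calls, and FUS3, an embryo regulator, had the smallest p at 0.45 (SE 0.15; limma, adjusted p = 0.915). In that list CRU3 stood at 7.07 in PAR9-2, against 4.30 and 4.71 in PAR18-2 and PAR36-4. CRU3 was 5.63, 4.92 and 4.28 in the empty vector lines. The other CRU3 features were also highest in PAR9-2, at 7.03, 7.19 and 6.70. CRA1 was highest there too, at 7.52, though its second feature was highest in PAR18-2, at 5.65. SESA1, SESA3, OLEO1 and OLEO2 were not highest in PAR9-2. The cause was not tested. In the female gametophyte and endosperm list 6 of 9 were in the low mode in all lines, with a median of -0.10 and 0 calls, and AGL80, a central cell MADS gene, had 0.29 (SE 0.12; limma, adjusted p = 0.915). Over all features 30.7% were in the low mode in all lines.

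Of the 12 late seed coat genes, 3 were in the low mode in all lines, namely PER36, PMEI6 and DP1, and 9 were not. That is 25% of the list, against 30.7% of all features. In whole-plant RNA the signal of the other 9 cannot be assigned to the seed coat. The list median was 0.00 with 0 calls, and BXL1, a wall-modifying glycosidase gene, had the smallest p at -0.77 (SE 0.33; limma, adjusted p = 0.915).

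Flower, anther and young organ genes had median differences above 0 without a call. The floral organ list had 7 of 7 differences above 0 and a median of 0.73, with SEP1 at 0.74 (SE 0.24), AP1 at 0.80 (SE 0.35) and AP3 at 0.95 (SE 0.51), all at a limma adjusted p of 0.915. None of the 7 was in the low mode in all lines. The anther list had a median of 0.93, and its line means were 0.56, 1.04 and 0.74 in the MYBPAR lines against -1.04, 1.42 and -0.38 in the empty vector lines, with Cont2-3 highest of all. DYT1, a tapetum regulator, had the smallest p there, at -0.24 (SE 0.12; limma, adjusted p = 0.915). The line means of the meristem and young organ list were 0.18, 0.33 and 0.29 in the MYBPAR lines against -0.15, 0.11 and 0.04 in the empty vector lines, so the groups did not overlap. With several lists and 3 lines a group, such a separation of means is no result by itself. In that list 4 of 12 genes had MYBPAR values entirely above the empty vector values, where 6.32% of all features do. The median difference of that list was 0.28 with 0 calls, and AIL7, an AP2-type relative of ANT, had 0.47 (SE 0.13; limma, adjusted p = 0.915).

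**Figure D5:**
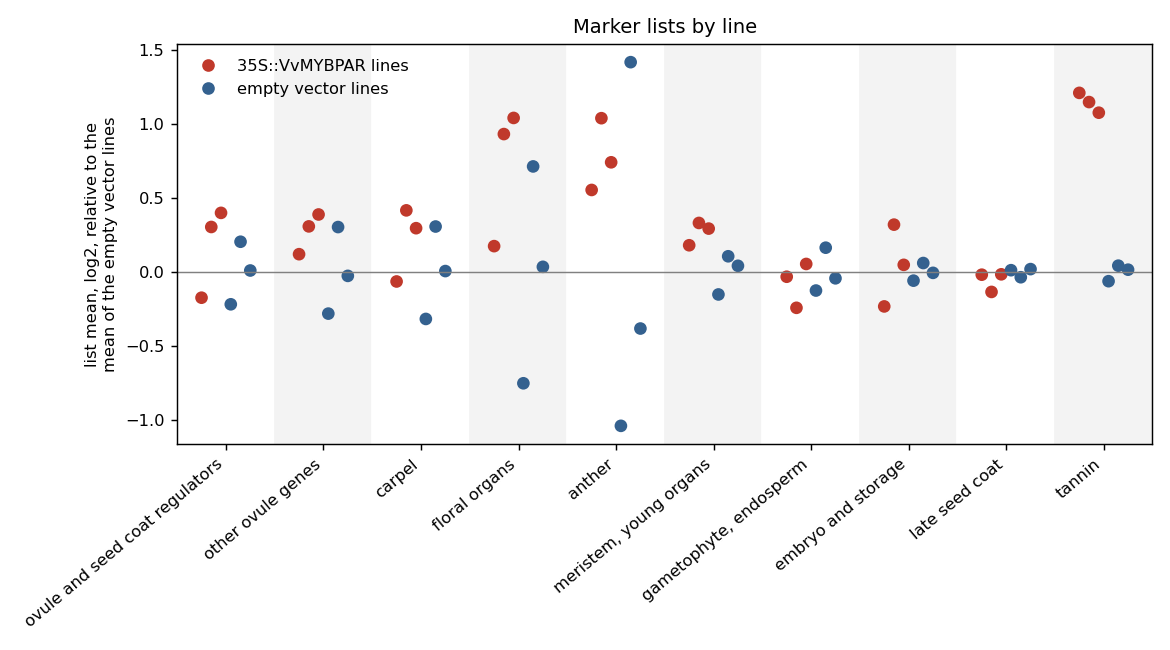
Mean log2 value of each marker list in each line, set against the average of the 3 empty vector lines (points). The 3 MYBPAR lines lie apart from the empty vector lines in the tannin list, at 1.08 to 1.21, and in the meristem and young organ list, at 0.18 to 0.33, and overlap with them in the other 8 lists plotted. The tannin list was chosen with earlier results of these data known, so its separation is a description only.

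The families of the regulators were also without a call. The 13 BELL homeodomain genes with BEL1 had a median log2 difference of -0.02, the 6 YABBY genes with INO -0.02, the 6 WIP genes with TT1 0.09, the 9 ANT-related genes 0.21 and the 6 AG-clade and B-sister MADS genes 0.44. The smallest p in these families belonged to BLH5 for BELL genes, at 0.63 (SE 0.15; limma, adjusted p = 0.915) and with all 6 values in the low mode, and to WIP3 for WIP genes, at 0.27 (SE 0.20; limma, adjusted p = 0.915). INO had the smallest p among the YABBY genes, AIL7 among the ANT-related genes and SHP1 among the MADS genes.

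SHP1 was the only regulator with a mean above the trough between the modes and a range over 1 on the log2 scale. Among 21306 loci with such a mean, the profiles closest to it by root mean square distance over the 6 lines were those of AT3G10116 (0.16), BGAL7, a beta-galactosidase gene (0.17), and AT4G16230 (0.18). BGAL7 stood at 10.21, 11.10 and 11.10 in the MYBPAR lines against 9.83, 10.87 and 9.95 in the empty vector lines. With 6 arrays and this many loci, close profiles are to be found for any gene.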

How the data were processed

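Each deposited file gives, for every feature, a linear intensity made by RMA, per the file headers; RMA is also named in the submitters' processing notes. RMA subtracts background, brings all arrays to 1 distribution and combines the probes of a feature, so that a shift shared by most transcripts is lost; its version is not given in the sources used here. The series table deposited by the authors holds log2 values that differ from log2 of those intensities by at most 1.66e-06. The values were tested as log2 with limma 3.58.1 in R 4.3.3 (lmFit, eBayes) over all 37118 features, with 3 against 3 lines, no filter and no covariate, and Benjamini-Hochberg adjustment at 0.05. Intervals are 95% intervals of that fit. An exact permutation test of 3 against 3 cannot go below p = 0.1. By the labels each sample came from a culture of its own line, and p-values reflect the spread among lines. Arrays carry no counts, and their number limits the precision.

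Members and lists were chosen with earlier results of these data known. All members are named, with BAN, AHA10, TT8, TT10 and GSTF5 of the tannin list, AP1, AP3 and AG, and from each other list the gene with the smallest p where none passed. TT2 and TT12 are named as endothelium markers. MYB5, TT19, TT15, TT9, TTG1, PER36, PMEI6, DP1, CRU3, CRA1, SESA1, SESA3, OLEO1 and OLEO2 are named after their values were seen. All 128 list loci matched the RefSeq table of assembly TAIR10.1, used for names only; no coordinates are given because no build is named for the arrays. The model was tested on simulated data. The lines were not paired by replicate number in the main fit. Alternatives were the normalization, the table, moderation, a filter on dim features, a pseudocount of 32, array weights, the replicate block, the mean over a locus's features, covariates and leaving out each line.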

Additional observations from a re-analysis of the deposited data

How the results depend on the processing

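The count of called regulators was 0 of 8 under each alternative fitted to them (the ovule gene covariate, made from 4 of them, was fitted to the tannin genes only), or 0 of those left where the dimmest 25% of features were dropped, and the lowest adjusted p of any regulator was 0.441. With the floral mean as covariate the log2 difference turned to -0.13 for STK, -0.13 for SHP2, 0.0681 for BEL1, -0.11 for TT12 and -0.12 for TT19, and the median of the 8 was -0.04; TT19 was at -0.15 with the ovule gene mean as covariate. The cause was not tested. Leaving out 1 line moved the median of the 8 between 0.09 and 0.27, STK between 0.26 and 1.04, SHP1 between 0.34 and 0.97, SHP2 between 0.11 and 0.60, TT1 between -0.48 and -0.11, TT12 between 0.08 and 0.76, BEL1 between -0.142 and 0.0623, TT16 between -0.62 and 0.0024, TT19 between -0.10 and 0.31, TT15 between -0.044 and 0.32, TT9 between -0.0532 and 0.13, TTG1 between -0.10 and 0.0123 and BAN between 5.82 and 6.45. The number of features called was 2, between 0 and 3 when 1 line was left out, and 0 with no moderation, with the replicate block and with the floral covariate. BAN, at 6.21 with no moderation (adjusted p = 0.914), at 6.21 with the replicate block (adjusted p = 0.123) and at 6.49 with the floral covariate (adjusted p = 0.116), was then not called. Deviations from the group means correlated at 0.30, -0.06 and 0.24 for replicates 1, 2 and 3, and at -0.48 to 0.36 for lines of unlike number. These values do not settle whether the replicate numbers pair the lines. The replicate block called 0 regulators, as without it, though the SE of STK was 0.13 with the block and 0.46 without it.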
